A study of Sus scrofa with 6 samples.

Results

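The hypoxia-inducible factor (HIF) subunits and the enzymes that sense oxygen for them were followed in cultured cells from fetal pigs, labelled as immature Sertoli cells, which nurse germ cells in the testis tubules. The set was chosen by gene symbol and had 10 members: the alpha subunits HIF1A, EPAS1 and HIF3A, the beta subunits ARNT and ARNT2, the prolyl hydroxylases EGLN1, EGLN2 and EGLN3, the asparaginyl hydroxylase HIF1AN, and VHL. Of these, 8 matched a row among the 17670 genes of the count table, and all 8 had enough counts to be tested. EGLN2 and VHL were not matched to a row and were not analysed here. The fetuses were at 80 to 90 days of gestation. All cells were kept in minimum essential medium with 10% fetal bovine serum and penicillin-streptomycin at 37 °C and 5% CO2, and no genotype or strain was given. There were 3 libraries of control cells and 3 of cells given 250 µM AA2P (L-ascorbic acid 2-phosphate, a long-lived vitamin C derivative) after 6 h of culture. For how long they were treated was not stated in the labels. Whether the replicates were separate cultures or animals was not stated either, so p-values measure the scatter of these 6 libraries alone, which may be technical.

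HIF is a transcription factor made of an oxygen-sensitive alpha subunit and a stable beta subunit. In the presence of oxygen, the EGLN enzymes hydroxylate prolines of the alpha subunit, VHL binds the hydroxylated protein, and a ubiquitin ligase built around VHL marks it for destruction. HIF1AN, also called FIH, hydroxylates an asparagine and so keeps the alpha subunit from binding the coactivators EP300 and CREBBP. These hydroxylases use oxygen, iron and 2-oxoglutarate, and ascorbate supports their activity by keeping the iron reduced. EGLN1 and EGLN3 are themselves HIF target genes. Most control of HIF acts on the protein, which RNA sequencing does not measure. The comparison asked how the RNA of these genes differed between cells with and without AA2P.

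The libraries held 18747307 to 23521291 counts. Levels are given in CPM (read counts relative to a fixed library size) after TMM scaling, which balances libraries whose most abundant genes take different shares of the reads. With plain library totals in its place, the median change over the tested genes moved up by 0.17 on the log2 scale, so small changes depend on the scaling. AA2P library 3 was the closest to the controls, its log2 CPM across genes correlating with theirs at 0.970 on average, against 0.959 and 0.961 for AA2P libraries 1 and 2. Of the Sertoli cell markers searched, 12 of 17 had a row. Clusterin (CLU) had a level of 4228 ± 168 CPM in control and 1301 ± 266 CPM in AA2P libraries (SD, n = 3), while INHA, DHH and NR5A1 were each under 1 CPM on average in both groups. The levels of SOX9 were 11.6 ± 0.647 and 2.22 ± 0.459 CPM in the same order, and those of AMH 36.4 ± 1.52 and 34.4 ± 2.35 CPM. Kidney tubule markers were present in both groups, their summed level running from 404 to 457 CPM in controls and from 1191 to 1539 CPM with AA2P. LRP2, PAX2 and SLC34A1 were among the most abundant of them, and 9 of 10 tested were called higher and 1 lower. Among 9 tested Sertoli cell markers 1 was called higher and 7 lower. For comparison, 26.0% of all tested genes were called higher and 26.1% lower. The levels of INHA, DHH and NR5A1 and of the kidney tubule markers go against the labelled cell type, so the identity of the cells is in question and every value below describes the cells so labelled. The summed Leydig, macrophage and blood, and germ cell markers stayed under 10 CPM in every library. Only 3 of 7, 5 of 8 and 2 of 9 of them had a row, so these sums cover part of each list. In the macrophage and blood list AIF1 rose from 0.726 to 5.16 CPM, while ITGAM fell from 6.05 to 1.42 CPM. Smooth muscle markers summed to 416 to 423 CPM in controls and 294 to 346 CPM with AA2P. Most of this was TAGLN, at 375 and 307 CPM on average, while ACTA2 and MYH11 were under 1 CPM in both groups. Stromal markers, of which 4 of 7 had a row, summed to 12340 to 13220 and 8402 to 9061 CPM, nearly all COL1A2. PDGFRA and PDGFRB among them were under 1 CPM on average in both groups. SOX9, AMH, INHA, DHH, NR5A1, ACTA2 and MYH11, and the endothelial gene EMCN below, were chosen after their values were seen.

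The alpha subunits and the matched prolyl hydroxylases were lower with AA2P, and ARNT2 and HIF1AN were higher. EGLN3 fell 2.43-fold, HIF3A 2.14-fold, HIF1A 1.88-fold, EPAS1 1.52-fold, EGLN1 1.26-fold and ARNT 1.14-fold, while ARNT2 rose 1.71-fold and HIF1AN 1.15-fold. By the quasi-likelihood test of edgeR, with p-values adjusted over 12701 genes, all 8 matched members passed an adjusted p of 0.05, against 52.1% of all tested genes. Of the 8, 6 were lower and 2 higher, where 26.1% of all tested genes were called lower and 26.0% higher. The groups were fully separated in CPM for each of the 8, which held for 59.3% of all tested genes. A change of at least 2-fold was called in 2 members, EGLN3 and HIF3A, and in 9.01% of all tested genes. With library totals 7 of the 8 were called, against 59.4% of all genes, and ARNT was not, and 45.1% of all genes were called higher and 14.3% lower.

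**Figure D1:**
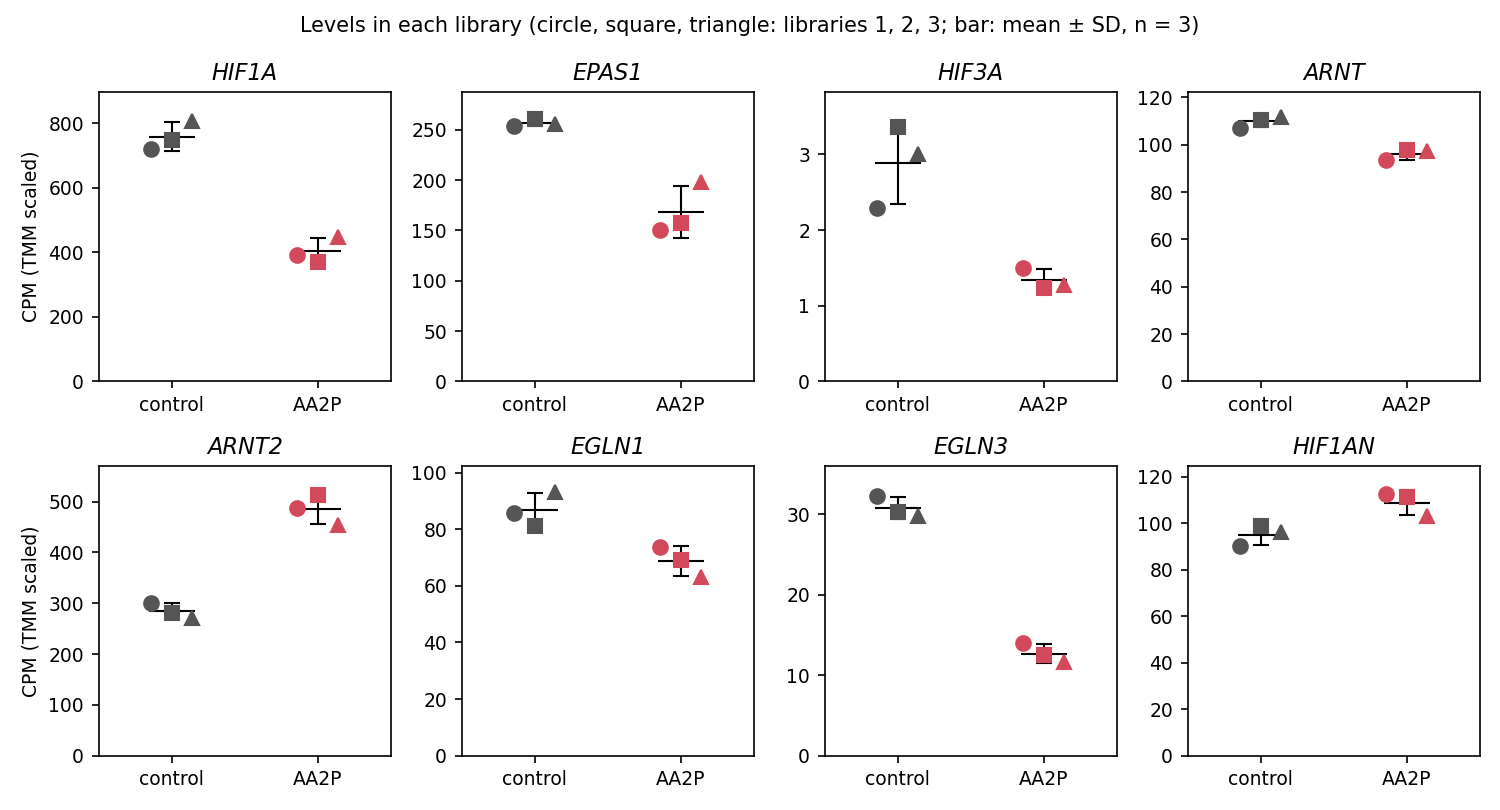
Level of each matched gene in TMM-scaled CPM on a linear axis from 0, with circles, squares and triangles for libraries 1, 2 and 3 and bars for the mean ± SD of 3 libraries. The AA2P points lie below the control points in 6 panels and above them for ARNT2 and HIF1AN.

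HIF1A encodes the alpha subunit of HIF1, found in nearly all cell types. Its level was 719, 749 and 809 CPM in control libraries 1 to 3, and 393, 371 and 449 CPM in AA2P libraries 1 to 3. The highest AA2P library was well below the lowest control library. The log2 fold change was -0.91 with a standard error of 0.07 and a 95% interval of -1.05 to -0.77, with an adjusted p of 7.14e-09 by edgeR's quasi-likelihood test. HIF1A was an abundant transcript, with 7499 to 16661 counts per library, and 4.15% of all tested genes had a lower log2 fold change.

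EPAS1 encodes the alpha subunit of HIF2, known from endothelial, lung and kidney interstitial cells. It was at 254, 260 and 255 CPM in controls and at 150, 157 and 198 CPM with AA2P. The controls lay close together, while AA2P library 3 stood above the other AA2P libraries and below every control. On the log2 scale the change was -0.61, with a standard error of 0.08 and an interval of -0.77 to -0.44, with an adjusted p of 5.83e-06 by edgeR's quasi-likelihood test. Without AA2P replicate 3 it was -0.74. In bulk RNA, fewer cells of a type and less RNA per cell cannot be told apart. Of 10 endothelial markers 5 had a row, and their summed level was 5.361 to 6.996 CPM in controls and 11.01 to 13.17 CPM with AA2P. The endothelial genes EMCN and TEK were under 1 CPM on average in both groups. PECAM1 was at 2.25 ± 0.385 CPM in controls and 6.97 ± 0.874 CPM with AA2P, and was called higher. ESAM, at 3.46 ± 0.385 and 4.01 ± 0.789 CPM, and TIE1, at 0.387 ± 0.146 and 0.665 ± 0.187 CPM, were not called. Whether endothelial cells had a part in the EPAS1 result was not tested.

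HIF3A encodes a further alpha subunit, several isoforms of which oppose the others. It was scarce, with 51, 61 and 62 counts in control libraries and 30, 25 and 31 counts in AA2P libraries. In CPM these were 2.298, 3.36 and 3.009 against 1.501, 1.238 and 1.273. The groups did not overlap, but the spread among controls was a coefficient of variation of 18.7%. HIF3A changed by -1.10 on the log2 scale, and its interval of -1.55 to -0.65 was the widest of the 8. The adjusted p was 0.000409 by edgeR's quasi-likelihood test. The table gives reads per gene, so isoforms of HIF3A were not resolved.

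ARNT, the general beta subunit that also pairs with the dioxin receptor AHR, changed little. Levels were 107, 111 and 112 CPM in controls and at 93.4, 97.7 and 97.4 CPM with AA2P. This was a log2 fold change of -0.19 with an interval of -0.30 to -0.09, with an adjusted p of 0.00388 by edgeR's quasi-likelihood test. With library totals it was -0.02, the groups overlapped, and the adjusted p was 0.714, in a range of 0.00199 to 0.714 over 14 alternatives.

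ARNT2, a beta subunit best known from brain and kidney, went the other way. Its level was 301, 281 and 271 CPM in controls and 488, 514 and 455 CPM with AA2P. The lowest AA2P library exceeded every control by a wide margin. ARNT2 rose by 0.77 on the log2 scale, with a standard error of 0.06 and an interval of 0.65 to 0.89, with an adjusted p of 8.08e-09 by edgeR's quasi-likelihood test. With library totals the rise was larger, at 0.94. The summed kidney tubule markers given above also rose with AA2P and were lowest, among the AA2P libraries, in library 3, where ARNT2 was lowest too. Their part in the ARNT2 result was not tested.

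EGLN3 had the largest change of the oxygen sensors. This prolyl hydroxylase is strongly induced by HIF in many cell types. It was at 32.3, 30.3 and 29.8 CPM in controls and at 14.01, 12.48 and 11.58 CPM with AA2P. All AA2P libraries were far below the lowest control library. The log2 fold change was -1.28 with a standard error of 0.09 and an interval of -1.46 to -1.10, with an adjusted p of 3.02e-09 by edgeR's quasi-likelihood test. Of all tested genes 2.24% had a lower log2 fold change.

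EGLN1, the main prolyl hydroxylase that sets HIF alpha levels under normal oxygen, fell less. Its level was 85.8, 81.2 and 93.2 CPM in controls and 73.8, 69.0 and 63.2 CPM with AA2P. The gap between the lowest control and the highest AA2P library was smaller than the range within either group. EGLN1 changed by -0.34 on the log2 scale, with an interval of -0.48 to -0.20, with an adjusted p of 0.000429 by edgeR's quasi-likelihood test. With library totals it was -0.17, the groups overlapped, and the adjusted p was 0.0426, in a range of 1.47e-07 to 0.0426 over 14 alternatives.

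HIF1AN, the asparaginyl hydroxylase, was slightly higher with AA2P. It was at 90.2, 98.8 and 96.3 CPM in controls and at 113, 111 and 103 CPM with AA2P. The nearest libraries of the groups, control 2 and AA2P 3, lay close together. The log2 fold change was 0.20 with an interval of 0.08 to 0.31, with an adjusted p of 0.00705 by edgeR's quasi-likelihood test. Without control replicate 1 it was 0.16 with an adjusted p of 0.0575, which misses the threshold, in a range of 3.66e-05 to 0.0575 over 14 alternatives. With library totals the rise was 0.37.

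**Figure D2:**
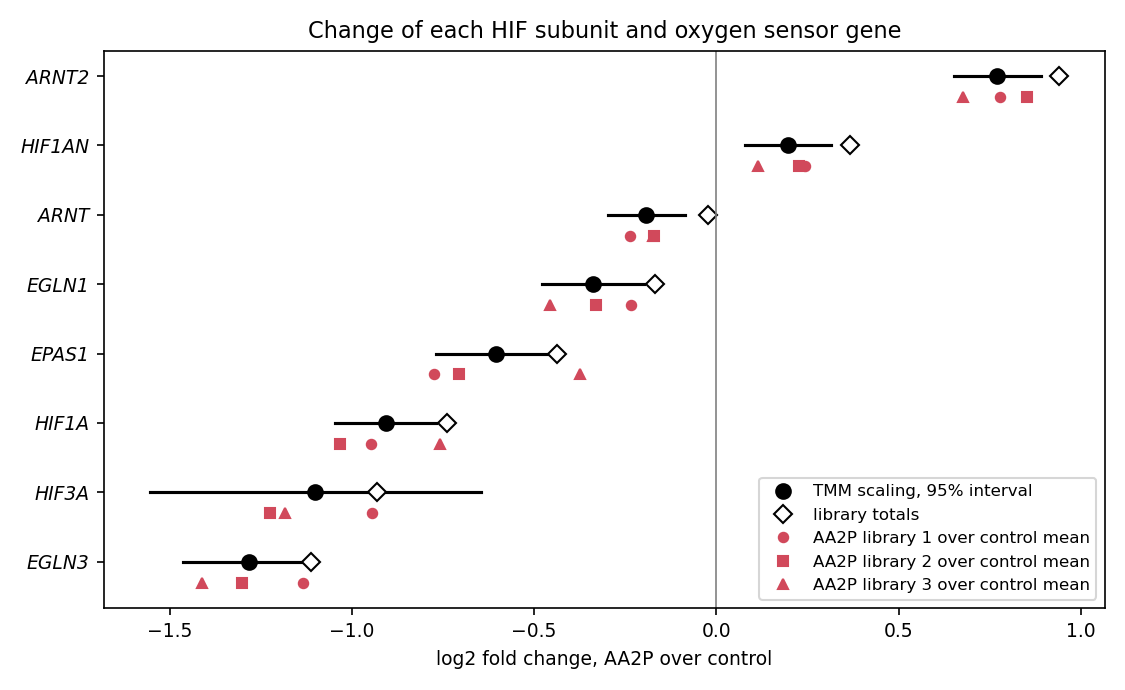
Log2 fold change of AA2P over control for each gene: black circles with lines give the TMM-scaled estimate with its 95% interval, open diamonds the estimate with library totals, and coloured symbols each AA2P library over the control mean. EGLN3, at -1.28, lies lowest and ARNT2, at 0.77, highest, and the diamond of ARNT, at -0.02, lies next to 0.

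AA2P library 3 did not stand nearer the controls for every member. Relative to the control mean, HIF1A was at -0.76 on the log2 scale in library 3, against -0.95 in library 1 and -1.03 in library 2. EPAS1 was at -0.38 against -0.77 and -0.71. The hydroxylases EGLN1 and EGLN3 showed the opposite order, with their lowest values in library 3, at -0.46 and -1.41. The rises of ARNT2 and HIF1AN were smallest in library 3, at 0.68 and 0.12. Without AA2P replicate 3 all 8 genes were still called.

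Ratios between the counts of a pair of genes within a library do not depend on how libraries are scaled. They are not divided by transcript length, so a ratio says nothing of which gene has more molecules, and only its change is read. Each of the 8 matched members was already separated between the groups in CPM, as were 59.3% of all tested genes. Ratios of other gene pairs were not computed, so no share over all pairs can be given. Of 8 ratios computed, 7 did not overlap between the groups. Each of these 7 had an exact permutation p of 0.1 (two-sided), the smallest that 3 against 3 libraries allow, and an adjusted p of 0.114 over the 8 ratios, so none could pass the threshold.

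The ratio of HIF1AN to HIF1A differed most. It was 0.125, 0.132 and 0.119 in controls and 0.287, 0.300 and 0.230 with AA2P, or 2.15-fold higher. Every AA2P library had more HIF1AN reads per HIF1A read than any control. EGLN1 to HIF1A was 0.119, 0.108 and 0.115 in controls and 0.188, 0.186 and 0.141 with AA2P, or 1.49-fold higher. EGLN3 to HIF1A was 0.0449, 0.0405 and 0.0368 in controls and 0.0357, 0.0337 and 0.0258 with AA2P, or 1.29-fold lower. Relative to HIF1A reads, those of EGLN1 and HIF1AN were thus more numerous in the AA2P libraries, and those of EGLN3 fewer.

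Within the hydroxylases, the ratio of EGLN1 to EGLN3 was 2.66, 2.68 and 3.13 in controls and 5.26, 5.52 and 5.45 with AA2P, a difference of 1.92-fold. Within the beta subunits, ARNT to ARNT2 was 0.357, 0.393 and 0.413 in controls and 0.191, 0.190 and 0.214 with AA2P, or 1.95-fold lower. HIF1A to ARNT was 6.70, 6.77 and 7.22 in controls and 4.21, 3.80 and 4.61 with AA2P, or 1.64-fold lower. The alpha subunits moved more nearly together. HIF1A to EPAS1 was 2.83, 2.87 and 3.17 in controls and 2.62, 2.36 and 2.27 with AA2P, 1.22-fold lower. HIF1A to HIF3A overlapped between the groups, with a difference of 0.18 on the log2 scale and an exact permutation p of 0.5.

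**Figure D3:**
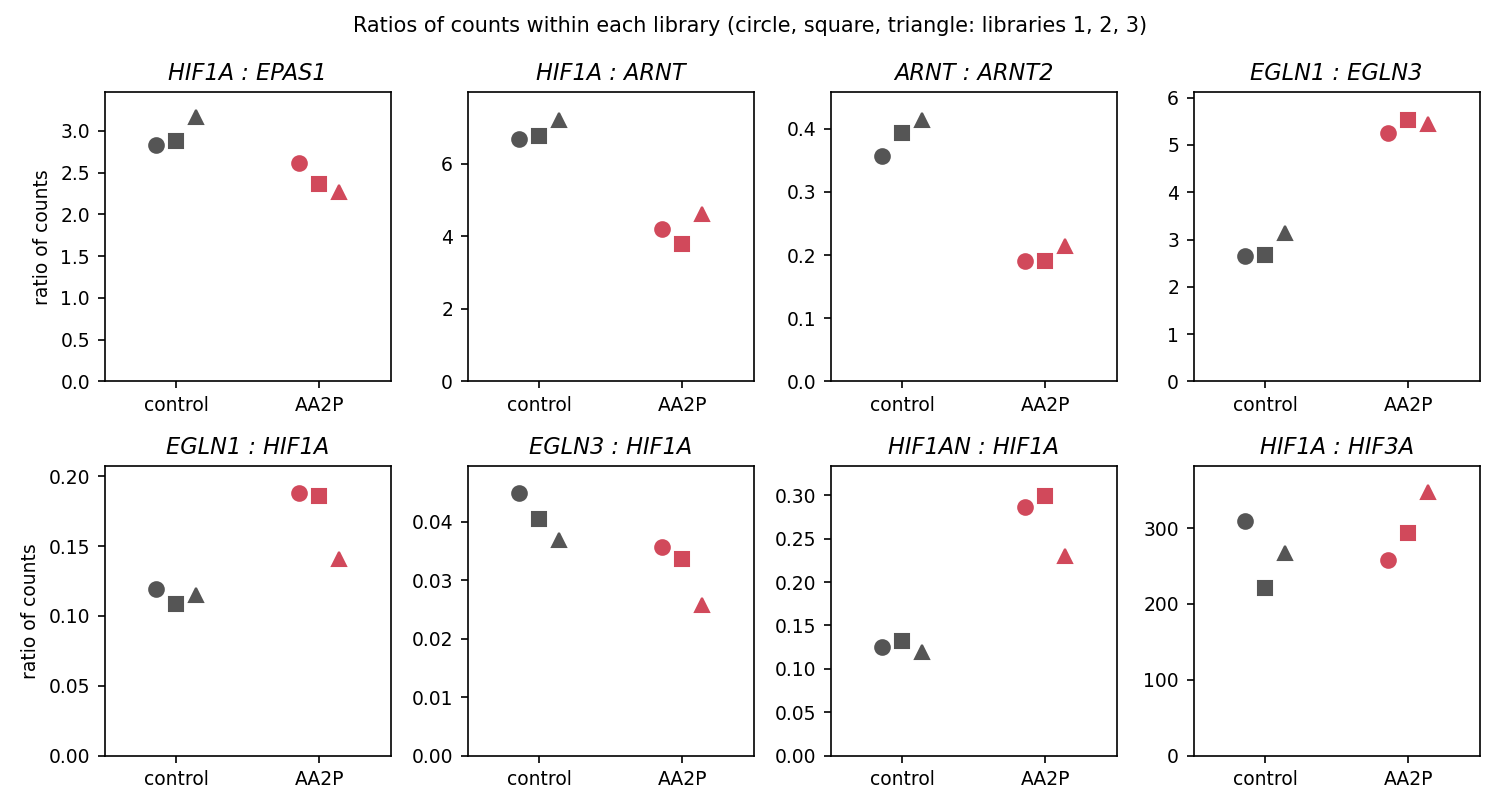
Ratios of read counts between pairs of genes in each library, on linear axes from 0, with circles, squares and triangles for libraries 1, 2 and 3. Control and AA2P points do not overlap except for HIF1A to HIF3A, and the ratio of HIF1AN to HIF1A is 2.15-fold higher with AA2P.

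HIF target genes were mostly lower with AA2P, as were the alpha subunits. Whether the targets followed the alpha subunits was not tested. Of 24 tested targets mostly assigned to HIF1, 21 fell, none rose, and MXI1, PPFIA4 and INSIG2 did not pass. Their median log2 fold change was -1.03, and 26.1% of all tested genes were called lower. Of the 24, EGLN1 and EGLN3 are members here, and without them 19 of 22 fell. P4HA1, a collagen prolyl hydroxylase subunit, fell from 366 ± 4.56 to 95.8 ± 3.96 CPM (SD, n = 3). The lactate dehydrogenase LDHA and the glycolytic kinase PGK1 fell 3.06-fold and 2.30-fold, and P4HA2, another collagen prolyl hydroxylase subunit, fell 2.56-fold. ALDOA and ALDOC had too few counts to be tested. With library totals 19 of the 24 were called lower and none higher, with a median of -0.86. These totals called 14.3% of all tested genes lower and 45.1% higher.

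Among 15 tested targets that HIF2 drives or shares with HIF1, 12 fell and 1 rose, with a median of -0.67. The amine oxidases LOXL2 and LOX, which cross-link matrix, fell 3.04-fold and 1.61-fold. The secreted glycoprotein gene STC2 fell from 434 ± 8.43 to 53.7 ± 23.2 CPM (SD, n = 3), and the transferrin receptor TFRC 1.59-fold. The gene that rose was ANGPT2, an antagonist of the TEK receptor, at 0.114 ± 0.0194 CPM in controls, below the 0.135 to 0.165 CPM that 3 counts make there, and 1.81 ± 0.474 CPM with AA2P. VEGFA and DLL4 did not pass, with log2 fold changes of 0.01 and -0.02 and standard errors of 0.05 and 0.21. EPO, TGFA, CYBRD1 and TEK had too few counts to be tested. With library totals 10 were called lower and 2 higher, with a median of -0.50. These totals called 14.3% of all tested genes lower and 45.1% higher. The summed level of the HIF1 list was 6157 to 6280 CPM in controls and 2418, 2385 and 2468 CPM in AA2P libraries 1 to 3. That of the HIF2 and shared list was 6940 to 7070 CPM in controls and 2969, 2975 and 3750 CPM with AA2P. AA2P library 3, which had the highest HIF1A and EPAS1 of the AA2P libraries, was thus highest in both sums, by little in the first and by more in the second. ANGPT2, VEGFA, DLL4, MXI1, PPFIA4 and INSIG2 were named after their values were seen.

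**Figure D4:**
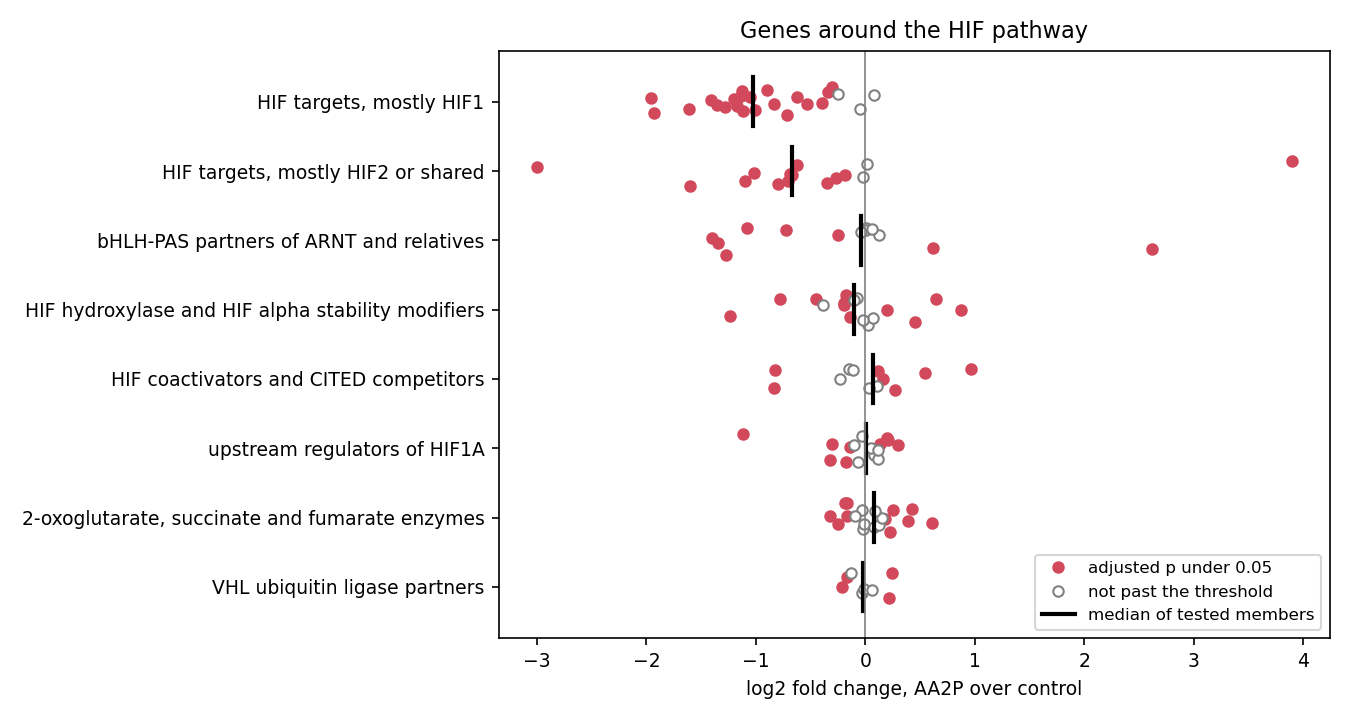
Log2 fold change of AA2P over control for the tested genes of 8 lists around the HIF pathway, filled where the adjusted p was under 0.05, with vertical lines at the medians. The HIF1 and HIF2 target lists have medians of -1.03 and -0.67, while the other 6 medians lie near 0.

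VHL acts with adaptors (ELOB and ELOC), a scaffold (CUL2), a ring protein (RBX1) and conjugating enzymes. Of 8 tested ligase partners 2 rose and 2 fell, with a median of -0.02, a share near that of all tested genes, of which 52.1% were called. NEDD8, which activates cullins, rose by 0.24 on the log2 scale, and ELOC by 0.21. CUL2 and the conjugating enzyme UBE2D2 fell 1.16-fold and 1.12-fold. With library totals 4 were called higher and none lower, so the lower calls of CUL2 and UBE2D2 were lost. These totals called 45.1% of all tested genes higher and 14.3% lower.

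Of 17 tested genes that modify the stability of HIF alpha or of the EGLN enzymes, 4 rose, 7 fell and 6 did not pass, with a median of -0.11. Of all tested genes 26.0% were called higher and 26.1% lower. SIAH1 and SIAH2, ubiquitin ligases that degrade EGLN proteins, fell 1.72-fold and 2.35-fold, and SIAH2 went from 12.2 ± 2.17 to 5.18 ± 0.631 CPM (SD, n = 3). HSP90AA1, a chaperone that binds HIF1A protein, rose from 778 ± 12.7 to 1216 ± 14.8 CPM, and its reads could be shared with near-identical copies. AJUBA, a LIM protein that can bridge EGLN and VHL proteins, rose from 98.9 ± 6.88 to 136 ± 1.43 CPM. With library totals 7 were called higher and 3 lower, with a median of 0.06. These totals called 45.1% of all tested genes higher and 14.3% lower.

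Of 12 tested coactivators of HIF and their competitors, 5 rose, 2 fell and 5 did not pass, with a median of 0.07, a share called near the 52.1% of all tested genes. PKM, a pyruvate kinase whose M2 form can act as a HIF1 coactivator, fell 1.78-fold from 3414 ± 111 CPM (SD, n = 3), and ZNHIT1, a subunit of a chromatin remodelling complex, fell 1.78-fold. NCOA2, a coactivator of nuclear receptors, rose from 139 ± 0.710 to 202 ± 11.4 CPM, and the acetyltransferase KAT5 from 25.5 ± 1.51 to 30.7 ± 2.07 CPM. EP300 and CREBBP, the coactivators whose binding HIF1AN blocks, had log2 fold changes of 0.11 and 0.16 with adjusted p-values of 0.0479 and 0.0264 by edgeR's quasi-likelihood test, and were chosen after their values were seen. With library totals 7 were called higher and 2 lower, against 45.1% of all tested genes higher and 14.3% lower.

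Other proteins of the bHLH-PAS family, some of which share ARNT or ARNT2 as partners, were listed with their relatives. Of 13 tested, 2 rose, 6 fell and 5 did not pass, with a median of -0.04, against 26.0% of all tested genes called higher and 26.1% lower. SIM1, a partner of ARNT2 in hypothalamic neurons, was at 20.1, 15.2 and 20.2 CPM in controls and at 131, 119 and 92.8 CPM with AA2P. As for ARNT2, the AA2P libraries were all higher and library 3 was the lowest of them. BHLHE40 and BHLHE41, repressors that HIF can induce, fell 2.63-fold and 2.42-fold, and the clock protein gene BMAL2 fell 2.12-fold. AHR was at 0.872 ± 0.351 and 0.907 ± 0.377 CPM (SD, n = 3), and was chosen after its values were seen. With library totals 4 were called higher and 4 lower, against 45.1% of all tested genes higher and 14.3% lower.

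Regulators of HIF1A transcription and translation were called about as often as all tested genes, of which 52.1% were called. Of 16 tested, 4 rose, 5 fell and 7 did not pass, with a median of 0.01. EIF4EBP1, a repressor of cap-dependent translation, fell 2.17-fold, and the kinase MTOR fell 1.25-fold. NFKB1, a subunit of a factor that drives HIF1A transcription, fell 1.24-fold from 107 ± 2.87 to 86.1 ± 2.27 CPM (SD, n = 3), while PIK3CB, a lipid kinase subunit, rose from 83.2 ± 2.26 to 102 ± 9.51 CPM. With library totals 8 were called higher and 3 lower, against 45.1% of all tested genes higher and 14.3% lower.

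Enzymes that make or use 2-oxoglutarate, succinate and fumarate, the cosubstrate and inhibitors of the hydroxylases, were also listed. Of 19 tested, 6 rose, 5 fell and 8 did not pass, with a median of 0.07, again near the 52.1% called among all tested genes. IDH1 and IDH2, isocitrate dehydrogenases that can make 2-oxoglutarate, rose from 115 ± 3.48 to 176 ± 12.9 CPM and from 210 ± 8.27 to 282 ± 20.7 CPM (SD, n = 3). IDH3A, a subunit of the mitochondrial NAD-dependent isocitrate dehydrogenase, fell 1.19-fold. With library totals 13 were called higher and none lower, with a median of 0.24. These totals called 45.1% of all tested genes higher and 14.3% lower, and the median over all tested genes was 0.17.

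EGLN3, the member with the smallest p, was compared with 9221 other genes that had a symbol and a mean of at least 5 CPM, by Pearson's r of log2 CPM over the 6 libraries. TGFBR1, a receptor of TGF-beta, GBE1, the glycogen branching enzyme, and PERP, a desmosome-associated protein, had the highest r, of 0.999, 0.999 and 0.998. They fell by 0.73, 1.00 and 0.55 on the log2 scale. ALKBH3, a nucleic acid demethylase, and ACSBG1, an acyl-CoA synthetase, were among the genes with the lowest r, of -0.997 and -0.996, and rose by 0.47 and 1.17. With 3 libraries at each of 2 levels, 997 genes had an r above 0.95, so a high r is common here.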

How the data were processed

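RNA sequencing of 6 libraries was analysed from whole-number counts of reads per gene that the authors deposited, not normalized. The submitters' processing notes name bcl2fastq and the aligner HISAT2 2.0.5. No source used here names the counting tool, strand setting, annotation or build, so overlapping or duplicated genes are uncertain. Symbols came from a table of gene names and were found for 13141 of 17670 identifiers.

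Counts were tested in R 4.3.3 with edgeR 4.0.16 (filterByExpr, TMM, quasi-likelihood F test, group alone, Benjamini-Hochberg over 12701 genes). Standard errors were derived from the log2 fold change and its F statistic, and intervals are at 95%. Ratios used counts + 0.5. The procedure was tested on simulated data. A level of 3 counts was 0.123 to 0.165 CPM, for counting error only.

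The members and the 8 pathway and 8 marker lists were chosen with earlier results of these data known. Named genes were the members, up to 4 called genes by smallest p per pathway list, the 4 most abundant markers per list and the 3 genes most and least like EGLN3; some genes that this rule names are not reported here. Alternatives were DESeq2 1.42.0 size factors and Wald test, library totals, 2 filters, limma-voom (limma 3.58.1), a replicate block, a stricter threshold and each library left out.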

Additional observations from a re-analysis of the deposited data

How the results depend on the processing

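The direction of all 8 genes held under all 14 alternatives, and 110 of their 112 alternative values kept their side of the threshold. ARNT was lost with library totals, at -0.023. HIF1AN was lost without control replicate 1, at 0.16, its values without single libraries running from 0.16 to 0.24. The labels did not say whether libraries with the same number were paired. The deviations of same-numbered libraries from their group means correlated at -0.04, -0.02 and -0.06, which with 3 libraries per group cannot settle it. With the number as a replicate block, 8 members and 6204 genes in all were called, against 8 and 6615. Ratios of counts kept their direction with counts + 2 and without each library. HIF3A, at 25 to 62 counts, was limited most by depth.

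Over the whole table library totals gave 5727 genes higher and 1822 lower, against 3302 and 3313. In the pathway lists library totals gave 4 higher and 0 lower for ligase partners, 7 and 3 for stability modifiers, 4 higher for bHLH-PAS genes, 8 and 3 for HIF1A regulators, 13 and 0 for the 2-oxoglutarate list and 2 higher for HIF2 targets. An adjusted p of 0.01 left 1 and 1 ligase partners, 4 stability modifiers lower, 2 coactivators higher, 3 HIF1A regulators lower and 2 of the 2-oxoglutarate list lower. With the replicate block 1 ligase partner and 4 stability modifiers were lower and 3 coactivators higher. The DESeq2 Wald test called 1 ligase partner lower. With no filter on low counts 3 coactivators and 1 HIF1 target were higher.

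Without single libraries, ligase partners ran from 1 to 2 higher and 1 to 2 lower, stability modifiers from 4 to 7 lower, coactivators from 2 to 4 higher, the 2-oxoglutarate list from 2 to 5 lower and HIF1 targets from 0 to 1 higher. The list without EGLN1 and EGLN3 was added after seeing the data. The causes were not tested.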
